A study of Mus musculus with 16 samples.

Results

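Transcripts of dissociation-related genes were measured in every cell as a share of that cell's unique molecular identifiers (UMIs, each standing for a captured transcript molecule). The authors summed the set into a single percentage per cell, here called the dissociation percentage. All 163343 deposited cells of the 16 tumors carried a value, and none was left out here. The authors had already removed cells by limits on genes, UMIs and mitochondrial percentage. The genes of the set are not named in the sources used here, and the table of cells held no gene values, so no single gene could be followed and the classes could not be set against their defining markers. The authors had sorted the cells into 15 named classes and 39 clusters, and no cluster was split between classes.

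The tumors were grown under the skin of male C57BL/6 mice, 8 to 11 weeks old, from B78, an unpigmented murine melanoma line. A base editor had introduced a truncating change in mt-Nd5, the mitochondrial gene for a core subunit of respiratory complex I, at position m.11944 or m.12436. The edited share of the mitochondrial genomes in the cells, called heteroplasmy, was 60% or 80%. There were 3 m.11944 60% tumors, 3 m.12436 60% tumors, 3 m.12436 80% tumors and 7 wild-type (WT) tumors, each a separate tumor, and all were digested with enzymes and sorted for live cells. The tumors of a mutant group grew from the same edited line, so how much separately edited lines vary is not covered. The table placed the tumors in 3 batches. Batch 1 held the m.11944 60% tumors and WT 1 to 3, batch 2 the m.12436 60% tumors and WT 4, 5 and 7, and batch 3 the m.12436 80% tumors and WT 6.

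Breaking a solid tissue into single cells takes warm enzymes and shaking, and cells respond to this handling while they are still intact. The best-known response is the rapid transcription of immediate early genes, such as the transcription factors Fos and Jun, together with heat shock genes, whose products refold damaged proteins. The same genes are also used by undisturbed cells, in signaling, activation and stress. A raised percentage in a cell type can therefore not be told apart, in a table of this kind, as handling or as the state of the cell in the tumor. Whether these genes are in the set summed here is not stated.

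Over all cells the median dissociation percentage was 3.65% of UMIs, the quartiles were 2.97% and 4.81%, and the full range was 0.297% to 19.5%. A median cell held 177 dissociation UMIs among 4557 UMIs, and every cell held some. Tumors had 6371 to 13448 cells and median depths of 3130.5 to 7527.5 UMIs per cell. Counting error on the share summed over a tumor was small: the widest 95% Wilson interval was the value ± 0.00532 percentage points, and these intervals cover counting error only. Of the cells, 4.04% had a barcode that also occurred in another library, with 6 to 66 shared barcodes in each of 120 pairs of libraries, and 0 cells were marked as doublets. Of the cancer cells, 98.4% were called aneuploid, and so were 29.1% of fibroblasts, 16.8% of endothelial cells and 14.4% of erythroid cells, against 0.446% of macrophages, 0.113% of neutrophils and 0.0142% of monocytes. Whether the aneuploid calls in the stromal classes mark cancer cells was not tested.

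The dissociation percentage separated the cell types far more than it separated the tumors. In the following, the value of a class in a tumor is the median over its cells, and a class level is the mean of those values ± SD over 16 tumors. Neutrophils, short-lived granulocytes that arrive first at sites of damage, were highest at 6.83 ± 0.554%. Their tumor values were 6.50%, 6.36% and 7.74% in m.11944 60%, 7.17%, 6.86% and 7.04% in m.12436 60% and 7.01%, 6.17% and 6.15% in m.12436 80%, and they ran from 6.05% to 7.86% with a median of 6.87% in WT. The lowest neutrophil value of any tumor lay above the highest value of each of the other 11 classes that had 5 or more cells per tumor throughout.

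Among the other myeloid cells, which descend from the same bone marrow lineage, monocytes had 3.99 ± 0.346%, dendritic cells (DC), which present antigen to T cells, 3.59 ± 0.295% and macrophages, the resident phagocytes, 3.38 ± 0.316%. Cancer cells had 3.61 ± 0.304%. The stromal classes followed, with 3.27 ± 0.194% in fibroblasts, the makers of matrix, and 3.09 ± 0.242% in endothelial cells, which line vessels. Among lymphocytes, CD4 T cells had 3.26 ± 0.149%, near the fibroblasts, and the other classes made up the low end, with CD8 T cells at 2.84 ± 0.148%, NK cells at 2.81 ± 0.185%, B cells at 2.77 ± 0.269% and the class named only T cells at 2.62 ± 0.189%. Apart from the neutrophils, the classes thus lay within a narrow band.

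**Figure D1:**
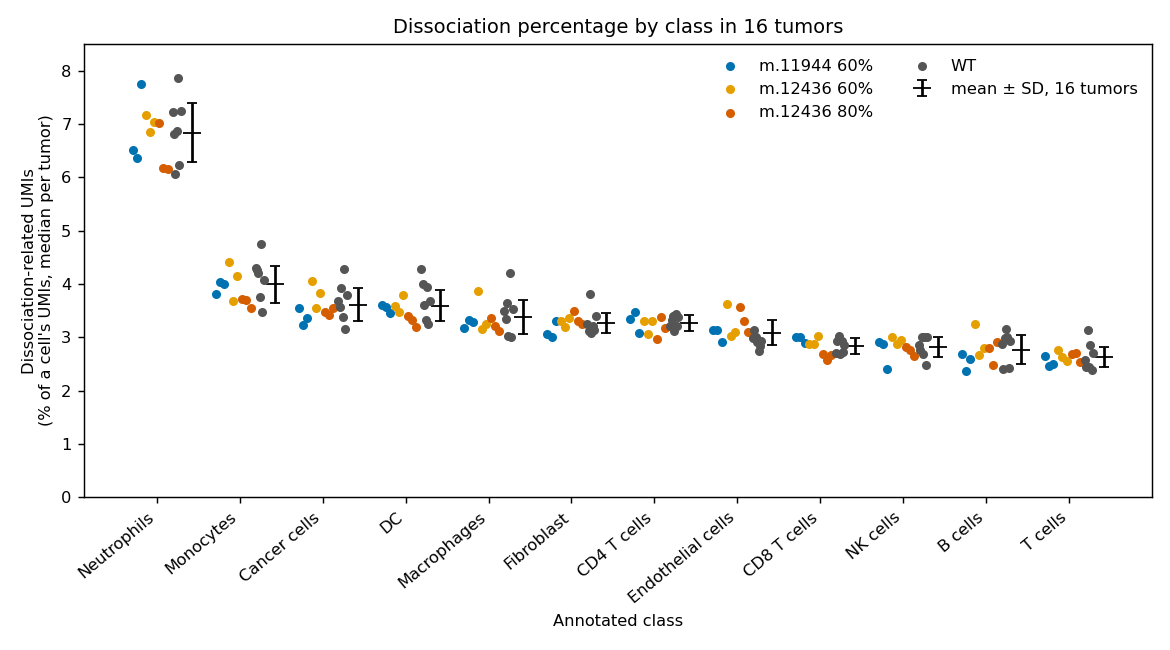
Dissociation percentage (percent of a cell's UMIs, y axis) in the 12 classes that had 5 or more cells per tumor throughout (x axis, highest mean first). Each point is the median over the cells of a class in 1 tumor, colored by group, and the black bar is the mean ± SD over 16 tumors. Neutrophils sit between 6.05% and 7.86%, above every point of the other classes.

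Neighbors in this order were compared within each tumor by an exact two-sided permutation of signs over the 16 tumors, adjusted over the 11 pairs by the Benjamini-Hochberg method. The order itself came from these values, and the classes were built by the authors from the expression of the same cells, which may include the summed genes. Neutrophils exceeded monocytes in 16 of 16 tumors, by 2.84 ± 0.445 percentage points (SD of the within-tumor differences), and monocytes exceeded cancer cells in 16 of 16, by 0.380 ± 0.212 points (exact permutation, adjusted p = 0.000168 for each, from p = 3.05e-05, the smallest that 16 tumors can give). DC exceeded macrophages in 13 of 16 tumors, by 0.217 ± 0.293 points (exact permutation, adjusted p = 0.0258). Endothelial cells exceeded CD8 T cells in 14 of 16, by 0.247 ± 0.303 points (exact permutation, adjusted p = 0.00649). The other 7 neighboring pairs did not differ beyond their spread after adjustment. Of these, CD4 T cells against endothelial cells (0.172 points, 14 of 16 tumors, exact permutation, adjusted p = 0.0735) and B cells against T cells (0.145 points, 12 of 16 tumors, exact permutation, adjusted p = 0.0569) came closest.

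Rare classes reached both ends of the scale. Basophils, granulocytes of allergic responses, numbered 22 cells in 11 tumors and had a median of 10.5%, with tumor values between 7.47% and 13.1%. Mast cells, which share granule contents with basophils, had a median of 2.68% over 236 cells. This was level with the T cells, whose median over cells was also 2.68%, at the low end of the 15 classes. Erythroid cells had 3.57% over 1134 cells, of which 652 came from WT 5, with a median of 3.77%. Their mean over tumors was 3.32%. None of these classes had 5 cells in every tumor, and they enter no test.

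The numbered clusters divided some classes sharply. Both neutrophil clusters were high, at a median over cells of 7.18% in cluster 7 (8404 cells) and 5.25% in cluster 35 (449 cells). In cancer cells the 11 clusters ran from 2.86% to 5.86%. Cluster 27, a small cluster of 1072 cells of which 74.6% were called G2M and the rest S phase, reached 5.86%. Cluster 12 had 5.20% over 5654 cells and cluster 9 had 5.03% over 7103 cells. Within each tumor, cluster 27 lay above the rest of the cancer cells by 2.16 ± 0.446 percentage points, cluster 12 by 1.60 ± 0.295 points and cluster 9 by 1.43 ± 0.396 points (mean ± SD over 16 tumors), in 16 of 16 tumors each. The other end of the class was held by cluster 13, with 2.86% over 5176 cells, which lay below the rest of the cancer cells in 16 of 16 tumors.

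The high cancer cell clusters differed among themselves in cell cycle phase. Clusters 14 and 16, like cluster 27, were made up largely of cells called G2M, with 68.6% and 93.2%, but had medians of 3.39% and 3.52%, while clusters 9 and 12 held 5.25% and 4.88% G2M cells. Cluster 11, with 76.0% S-phase cells, had 3.22%.

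In macrophages the division was between a single large cluster and the rest. Cluster 3 held 36.7% of the macrophages and had a median of 5.06%, whereas the other 6 clusters ran from 2.72% to 3.04%. In its tumors cluster 3 had 4.55%, 5.10% and 5.23% in m.11944 60%, 5.58%, 4.94% and 4.78% in m.12436 60% and 5.50%, 5.28% and 4.89% in m.12436 80%, and 3.97% to 5.78% with a median of 4.91% in WT. The difference from the rest of the macrophages was 2.04 ± 0.376 points and was positive in 16 of 16 tumors. Without cluster 3 the class level of macrophages was 2.98%, against 3.38% with it. Cancer cells without clusters 9, 12 and 27 had 3.36%, against 3.61% with them. The clusters left out were the highest of their classes, so a lower level follows from the choice. Macrophage cluster 22 was at the low end with 2.76% over 2098 cells. It also had the highest mitochondrial percentage of all clusters (median 2.32% of UMIs) and a median depth of only 1316 UMIs. Cluster 30 differed most from tumor to tumor, with an SD of 0.885 points and values from 2.35% in m.12436 80% 3 (8 cells) to 5.46% in WT 2 (28 cells).

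Monocyte clusters were closer together, between 3.49% in cluster 0 and 4.49% in cluster 5, yet cluster 5 lay above the remaining monocytes in 16 of 16 tumors (by 0.650 ± 0.169 points) and cluster 0 below them in 16 of 16. Fibroblasts split into cluster 23, with 3.88% and a median of 6099 UMIs per cell, and cluster 15, with 3.03% and 1287 UMIs. Cluster 23 was the higher in 16 of 16 tumors, by 0.824 ± 0.424 points. The CD8 T cell clusters 24 and 33 had 2.86% and 2.87%, and the cluster ahead was 24 in 8 tumors and 33 in the other 8. Among the 35 tested clusters, the lowest by tumor means were cluster 21 (T cells, 2.62%), cluster 34 (B cells) and cluster 22 (macrophages), both at 2.77%, cluster 17 (NK cells, 2.81%) and cluster 24 (CD8 T cells, 2.84%). Since the clusters were formed from the expression of these cells, the contrasts between them are given as descriptions without a test.

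**Figure D2:**
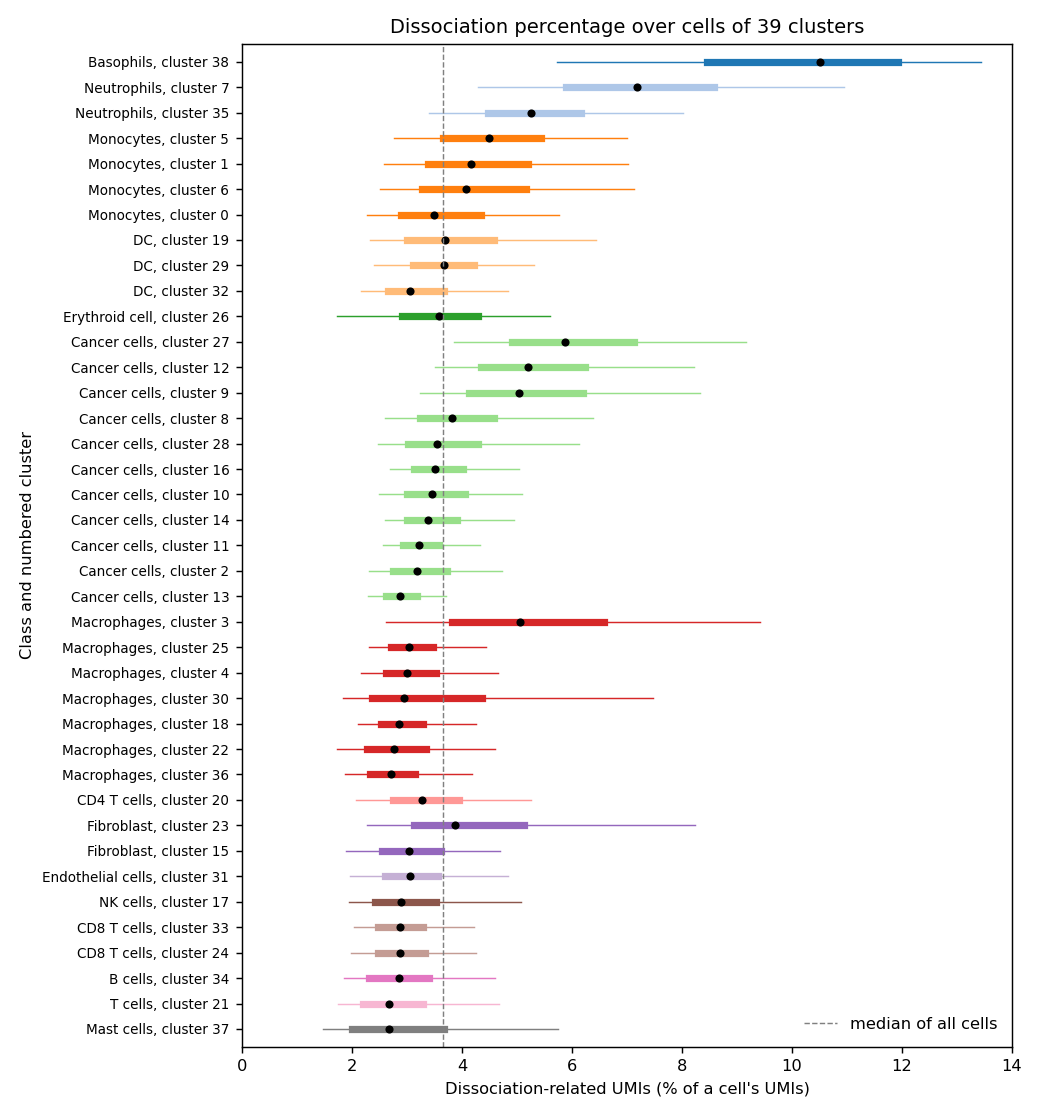
Dissociation percentage over the cells of each of the 39 clusters (x axis, percent of a cell's UMIs; rows grouped by class). Points are medians, thick bars the quartiles and thin lines the 5th to 95th percentiles, and the dashed line is the median of all cells, 3.65%. Cancer cell clusters 27, 12 and 9 and macrophage cluster 3 stand clear of the other clusters of their classes.

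Cells in the top 10% of the whole series, above 6.36%, were counted by class. Of the neutrophils 64.0% were above it (exact 95% binomial interval 63.0% to 65.0%), of the macrophages 10.9%, of the monocytes 7.43%, of the cancer cells 6.36%, of the DC 3.83% and of the CD8 T cells 0.111%. The interval treats the pooled cells as independent and does not cover the spread between tumors, whose neutrophil medians ran from 6.05% to 7.86%. Thinning each cell to 1000 UMIs leaves out shallower cells (1084 neutrophils and 105 cancer cells, for example), and the limit was then 6.4%. Above it were 63.7% of neutrophils, 10.8% of macrophages, 7.63% of monocytes, 6.57% of cancer cells, 3.98% of DC and 0.114% of CD8 T cells. Without thinning, neutrophils were 5.42% of all cells and 34.7% of the cells above 6.36%. Among cancer cells most of the high cells lay in clusters 9, 12 and 27, which had the highest medians of the class, so this follows largely from their choice. These clusters held 11.0% to 38.8% of the cancer cells of a tumor and 62.4% to 95.7% of its cancer cells above 6.36%.

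Of the variation between single cells, measured as the share of the sum of squares, 42.6% lay between clusters and 23.1% between classes. By contrast 3.63% lay between tumors, 1.37% between the 4 groups, 0.714% between batches and 0.280% between cell cycle phases. Inside classes this varied. Clusters took 40.8% and tumors 4.33% in cancer cells, and clusters 36.7% and tumors 3.13% in macrophages. In monocytes, the largest myeloid class, 6.80% lay between clusters and 4.33% between tumors, and in neutrophils 4.09% lay between clusters and 5.81% between tumors. Within each class the SD over cells was 2.06 to 6.72 times the SD that counting alone would give at the depth of its cells.

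Depth differed widely between classes, with a median of 1372 UMIs in neutrophils and 12165 in cancer cells, so the classes were also set side by side at matched depth. Among cells of 1000 to 2000 UMIs, neutrophils had a median of 7.22%, macrophages 4.25%, monocytes 4.03%, cancer cells 3.42%, DC 3.41%, CD4 T cells 3.28%, fibroblasts 3.14%, NK cells 2.93%, B cells 2.85%, CD8 T cells 2.81%, endothelial cells 2.73% and T cells 2.62%. Neutrophils remained highest, and macrophages stood above monocytes, the reverse of their order over all depths. In macrophages of 1000 UMIs or more the percentage was lower in deeper cells, while the shallowest cells were also low. The macrophage median was 3.19% in the 880 cells of 500 to 1000 UMIs and 4.25% at 1000 to 2000. It was 3.74% at 2000 to 4000, 3.14% at 4000 to 8000 and 2.91% at 8000 to 16000. Over all macrophages Spearman's rho with the UMI count was below 0 in 16 of 16 tumors (median -0.35 over tumors). Cluster 3 was shallower, with a median of 2808 UMIs, than cluster 4, the next largest, with 5003. Macrophage cluster 22 was shallower still, at 1316 UMIs, and had a low percentage of 2.76%. Neutrophils had 6.42% in the 1091 cells of 500 to 1000 UMIs, 7.22% at 1000 to 2000 and 5.64% in the 92 cells of 4000 to 8000. Single clusters differed in direction. Over 38 clusters rho, taken within tumors, was above 0 in 19 and below 0 in 19, between -0.281 and 0.225. Macrophage cluster 3 itself was the lowest of these (median rho -0.281) and, like monocyte cluster 0 (-0.193) and macrophage cluster 4 (-0.140), was below 0 in 16 of 16 tumors. Cancer cell cluster 16 was above 0 in 16 of 16 (0.189). Endothelial cells had a rho above 0 in 14 of the 14 tumors with enough cells (median 0.23).

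The relation to the mitochondrial percentage, a common measure of cell damage, ran mostly in a single direction. In 37 of 38 clusters cells with more mitochondrial UMIs had a lower dissociation percentage, with a median rho of -0.145 and a range of -0.394 to 0.0829. The relation was mostly weak, with a rho of at least 0.3 in size in 2 of the 38. Over the medians of the 39 clusters rho was -0.585. Cancer cells with under 0.5% mitochondrial UMIs had a median of 4.01%, those with 0.5% to 1% had 3.67%, and those with 1.5% to 2% had 3.18%. For neutrophils the same 3 bins gave 7.27%, 6.99% and 6.40%, and for endothelial cells 3.38%, 3.15% and 2.79%. Monocytes changed little over these bins, at 3.99%, 4.03% and 3.78%. At 2% to 3% and 3% to 5% cancer cells had 3.14% and 3.32%, and neutrophils 6.19% and 6.20%, with no further fall between these bins. Endothelial cells had 2.68% and 2.46% there, and monocytes 3.72% and 3.66%. All these are percentages of the same total, so a cell with more UMIs from 1 set has fewer left for the others, and cells are not independent replicates. The ribosomal percentage behaved less uniformly, with rho below 0 in 27 of 38 clusters.

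**Figure D3:**
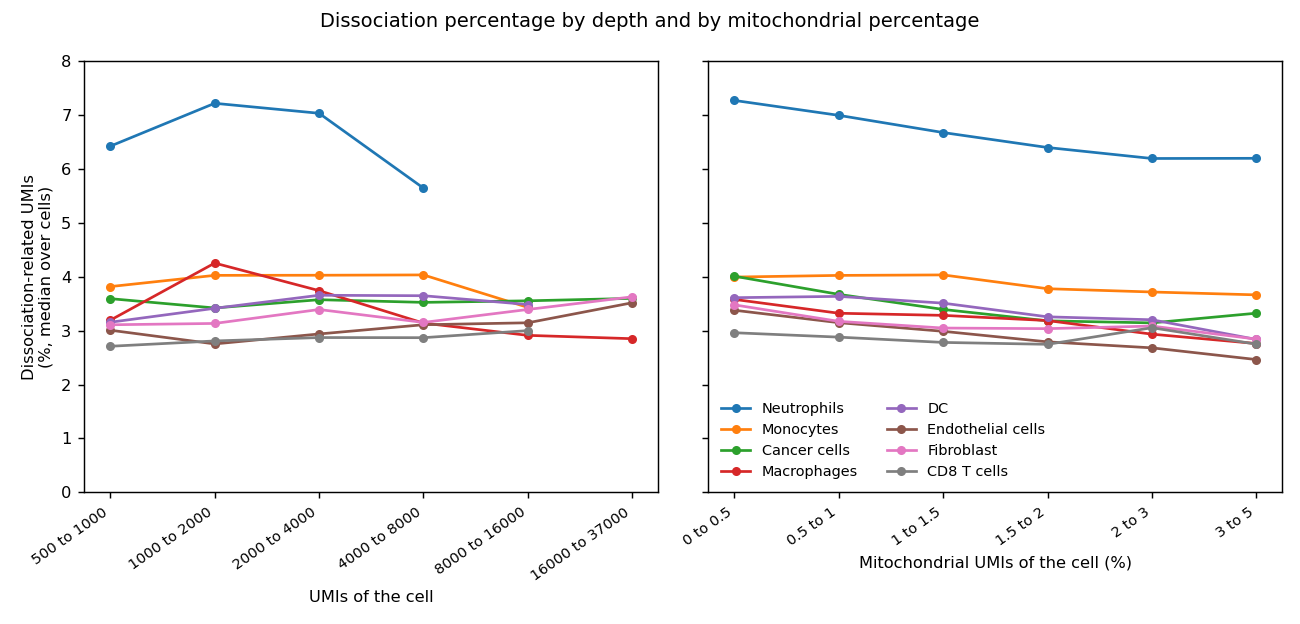
Median dissociation percentage over cells (y axis, percent of a cell's UMIs) by bins of UMIs per cell (left) and of mitochondrial percentage (right) in 8 classes; bins with under 20 cells are not drawn. Neutrophils lie above the other classes in every bin drawn. The macrophage line rises from 3.19% at 500 to 1000 UMIs to 4.25% at 1000 to 2000, and falls to 2.91% at 8000 to 16000.

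Cell cycle phase, as called by the authors, went with differences of up to 0.399 points in the classes compared. S-phase fibroblasts had 3.08% and G2M fibroblasts 3.18%, against 3.48% in G1 fibroblasts, and were lower in 15 and 14 of 16 tumors. Phase and cluster overlapped here. The low fibroblast cluster 15 held 35.3% S-phase and 49.8% G2M cells, against 10.6% and 12.9% in cluster 23. Phases were not compared within a cluster. S-phase macrophages had 3.18%, against 3.47% in G1 macrophages, and were lower in 16 of 16 tumors. S-phase cancer cells had 3.48%, against 3.68% in G1, and were lower in 15 of 16. G2M monocytes had 4.21%, against 3.98% in G1 monocytes, and were higher in 13 of 16. Fibroblasts called aneuploid had 3.08%, against 3.49% in fibroblasts called diploid, and were lower in 14 of 16 tumors. The dissociation percentages by phase and ploidy are means over tumors of the class medians and were not tested.

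Tumors had their own level, shared by several cell types. WT 5 had the highest value of all tumors in 4 of the 12 classes and lay 0.345 percentage points above the class means on average. Its endothelial value, over 12 cells, was the lowest of all tumors, at -0.353 points from the class mean. The tumor m.12436 60% 1 lay above the mean in 11 of 12 classes, by 0.261 points on average. WT 6 was below the mean in all 12 classes, by 0.314 points on average. Across the 16 tumors the medians of cancer cells and macrophages rose and fell together (Pearson r = 0.864, permutation p = 1e-05, the smallest that 100000 resamples can give, adjusted p = 3e-05 over 6 relations; Spearman rho = 0.721, permutation p = 0.00229, adjusted p = 0.00458). Cancer cells and monocytes gave r = 0.796 (permutation p = 0.00023, adjusted p = 0.00046; rho = 0.759, permutation p = 0.00102, adjusted p = 0.00306), and macrophages and monocytes r = 0.879 (permutation p = 1e-05, adjusted p = 3e-05; rho = 0.847, permutation p = 8e-05, adjusted p = 0.00048). The classes of a tumor share its library, so these are not separate libraries.

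The 3 relations kept their sign within batches and without the farthest tumors, and the weakest value was that of cancer cells and monocytes in batch 1. With batch means removed, r was 0.853 for cancer cells and macrophages, 0.810 for cancer cells and monocytes and 0.911 for macrophages and monocytes. Within batches 1, 2 and 3 the r of cancer cells and macrophages was 0.738, 0.955 and 0.639 (6, 6 and 4 tumors), that of cancer cells and monocytes 0.474, 0.978 and 0.554, and that of macrophages and monocytes 0.750, 0.942 and 0.917. Without WT 5 and m.12436 60% 1, the 2 tumors farthest from the median on the first measure, r was 0.673, 0.595 and 0.766 for these pairs (14 tumors). Over all 66 pairs of the 12 classes r was above 0 in 56, with a median of 0.372.

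No relation past the threshold was found between the tumor level and 3 measures of the libraries. The all-cell median had r = -0.262 with the median UMI count of the tumor (permutation p = 0.331, adjusted p = 0.497; rho = -0.282, permutation p = 0.288), r = 0.0262 with its median mitochondrial percentage (permutation p = 0.925, adjusted p = 0.925; rho = -0.0206, permutation p = 0.943) and r = 0.117 with its number of cells (permutation p = 0.668, adjusted p = 0.802; rho = 0.226, permutation p = 0.40), over 16 tumors. Without the 2 farthest tumors of each measure r was -0.339, 0.200 and 0.00732, and with batch means removed -0.207, -0.307 and 0.0929.

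**Figure D4:**
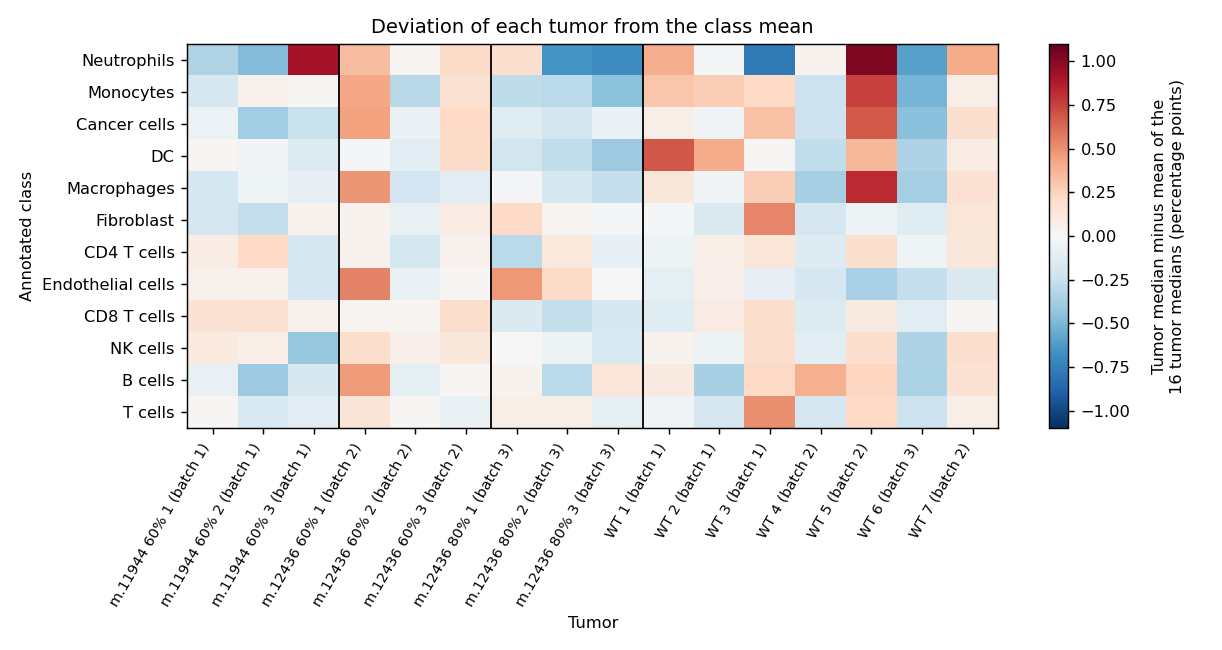
Deviation of each tumor (columns, grouped by mutation and heteroplasmy with WT at the right, batch in brackets) from the mean of the 16 tumor medians of each class (rows), in percentage points. Red is above and blue below the class mean; the column of WT 6 is below it in all 12 classes, and that of m.12436 60% 1 is above it in 11.

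Batch without genotype could be examined only in WT. WT 4, 5 and 7 of batch 2 had all-cell medians of 3.35%, 4.47% and 3.94%, and WT 1 to 3 of batch 1 had 3.90%, 3.75% and 3.93%. The difference was 0.0589 percentage points (exact permutation p = 0.80, where 3 tumors against 3 cannot go below 0.10), and the values of batch 2 lay on both sides of batch 1. None of the 12 classes gave an adjusted p under 0.80 in the same comparison. Endothelial cells had the smallest p of the classes, at the limit of 0.10, with a difference of -0.189 points (exact permutation, adjusted p = 0.80). Their values were 2.90%, 2.73% and 2.93% in WT 4, 5 and 7 of batch 2. In WT 1 to 3 of batch 1 they were 2.99%, 3.14% and 3.00%, with no overlap. Batch 3 had 1 WT tumor, and its m.12436 80% tumors were in no other batch.

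Mutant tumors did not differ from WT in the dissociation percentage of all cells beyond the spread between tumors. The tumor medians were 3.46%, 3.41% and 3.43% in m.11944 60%, 4.02%, 3.53% and 3.80% in m.12436 60%, and 3.58%, 3.42% and 3.45% in m.12436 80%, and in WT they ran from 3.31% to 4.47% with a median of 3.90%. The mutant tumors all lay within the WT range. The 9 mutant tumors averaged 3.57 ± 0.210% and the 7 WT tumors 3.81 ± 0.397%, a difference of -0.241 percentage points (95% interval -0.573 to 0.0891, exact permutation p = 0.133, adjusted p = 0.331 over 5 comparisons, and -0.168 points within batches). The 60% tumors differed from WT by -0.199 points (interval -0.623 to 0.218, exact permutation, adjusted p = 0.402) and the 80% tumors by -0.324 points (interval -1.01 to 0.268, exact permutation, adjusted p = 0.347). The 80% tumors lay 0.174 points above WT 6, the only WT tumor of batch 3 and the lowest of the WT tumors, and with 1 WT tumor batch and tumor cannot be told apart. Neutrophils, the highest of the large classes, made up 1.23% to 7.15% of the cells of mutant tumors, against 1.58% to 14.7% of those of WT tumors. Without neutrophils and basophils the mutant difference was -0.136 points (exact permutation, adjusted p = 0.569), and with equal weight to each class -0.0704 points.

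By class, 0 of 12 (0%) passed the adjusted threshold in mutant against WT tumors, and 1 of 12 (8.33%) had an unadjusted p under 0.05. The class medians were lower in mutant tumors for 10 of 12 classes, with a median difference of -0.0836 points. Cells annotated as cancer cells averaged 3.56 ± 0.249% in mutant tumors and 3.68 ± 0.370% in WT tumors, a difference of -0.129 points (interval -0.461 to 0.203, exact permutation, adjusted p = 0.814), which was -0.0279 points without WT 5 and -0.217 points without WT 6. Macrophages differed by -0.156 points, monocytes by -0.218, DC by -0.240 and neutrophils by -0.122, none past the threshold. Without WT 5 these were -0.0343 points in macrophages, -0.114 in monocytes, -0.203 in DC and 0.0376 in neutrophils, and the neutrophil difference was also above 0 within batches, at 0.00248 points.

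Endothelial cells were the class with the unadjusted p under 0.05, and they went the other way. Their tumor medians were 3.14%, 3.13% and 2.90% in m.11944 60%, 3.63%, 3.01% and 3.10% in m.12436 60% and 3.56%, 3.30% and 3.09% in m.12436 80%, and 2.73% to 3.14% with a median of 2.93% in WT. Of the 9 mutant tumors 3 lay above every WT tumor, and the others overlapped with WT. Mutant tumors averaged 3.21 ± 0.244% and WT tumors 2.93 ± 0.130%, a difference of 0.276 points (interval 0.0575 to 0.497, exact permutation p = 0.0135, adjusted p = 0.162 over 12 classes). Within batches it was 0.275 points (exact permutation p = 0.0244, adjusted p = 0.293). With each of the 16 tumors left out in turn it was 0.223 to 0.314 points (exact permutation, adjusted p = 0.0429 to 0.456). It passed the threshold only without m.11944 60% 3, at 0.314 points (exact permutation, adjusted p = 0.0429). The whole series held 643 endothelial cells, 12 to 72 per tumor. The mean over tumors of their median mitochondrial percentage was 0.885% in mutant and 1.13% in WT tumors, and that of their median depth 3646 UMIs in mutant and 4090 UMIs in WT tumors. The part of the mitochondrial percentage in the difference was not tested, and depth was varied only through limits and thinning. Over the 10 alternatives that include these, the difference was 0.118 to 0.321 points. Taking the mean over cells in place of the median gave 0.170 points (exact permutation, adjusted p = 0.831), and the share of UMIs pooled over endothelial cells 0.118 points (exact permutation, adjusted p = 0.650).

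Set against its own tumor, that is after subtracting the mean of the 12 class medians, the endothelial class lay at -0.267 ± 0.203 points in mutant tumors and at -0.613 ± 0.260 points in WT tumors. The difference of 0.346 points (interval 0.104 to 0.597, exact permutation p = 0.00656, adjusted p = 0.0787; 0.290 points within batches) did not pass the threshold after adjustment over 12 classes. The next smallest adjusted p over the classes, by the same exact permutation, was 0.603.

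Among clusters, 0 of 35 (0%) passed the adjusted threshold in mutant against WT tumors and 2 of 35 (5.71%) had an unadjusted p under 0.05. These were cluster 31, which is the endothelial class itself, and cancer cell cluster 27. Cluster 27 had 5.78%, 5.41% and 5.87% in m.11944 60%, 5.01%, 5.34% and 5.55% in m.12436 60% and 5.96%, 5.77% and 5.80% in m.12436 80%, and 5.56% to 6.18% with a median of 6.03% in WT. The groups overlapped, with the m.12436 60% tumors lowest. The difference was -0.340 points (interval -0.651 to -0.0399, exact permutation p = 0.0296, adjusted p = 0.519) and -0.377 points within batches (exact permutation p = 0.0138, adjusted p = 0.427), with only 6 cells of the cluster in m.11944 60% 1 and in m.12436 60% 1. Cluster 14, the third by p, averaged 3.34 ± 0.136% in mutant and 3.54 ± 0.240% in WT tumors (difference -0.193 points, exact permutation p = 0.0612, adjusted p = 0.665).

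**Figure D5:**
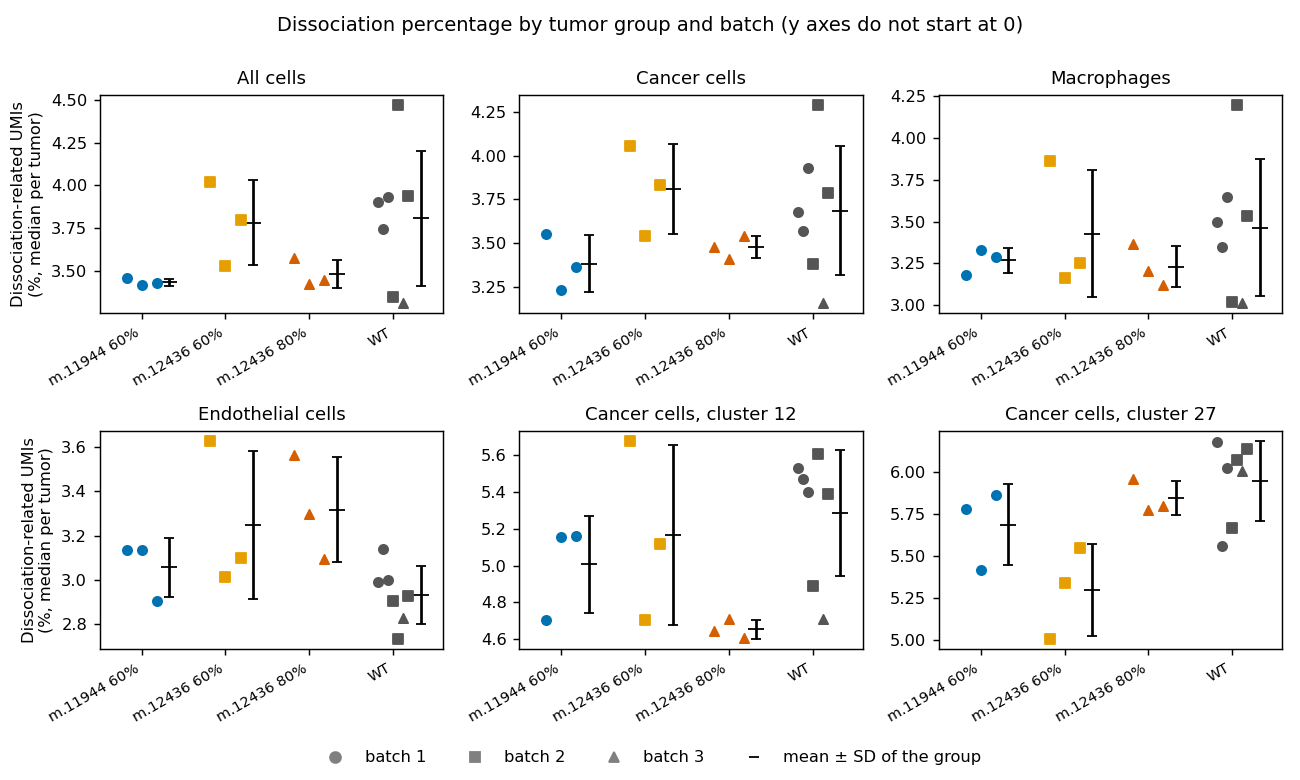
Median dissociation percentage per tumor (y axis, percent of a cell's UMIs, axes not starting at 0) for all cells, 3 classes and 2 cancer cell clusters, by group (x axis), with the symbol giving the batch and the black bar the mean ± SD of the group. The endothelial values of 3 mutant tumors lie above the WT maximum of 3.14%, and the all-cell medians of the mutant tumors lie within the WT range of 3.31% to 4.47%.

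The 60% and 80% tumors were also set against WT apart. With 60% tumors, 1 of 12 classes (8.33%) had an unadjusted p under 0.05, the endothelial cells, at a difference of 0.221 points (exact permutation p = 0.0390, adjusted p = 0.469), and 2 of 35 clusters (5.71%), again 27 and 31. With 80% tumors it was 2 of 12 (16.7%), the endothelial cells at 0.385 points (interval 0.129 to 0.637, exact permutation p = 0.0167, adjusted p = 0.20) and the CD8 T cells at -0.195 points (interval -0.366 to -0.0246, exact permutation p = 0.0333, adjusted p = 0.20). The CD8 T cell values were 2.68%, 2.58% and 2.67% in 80% tumors, below the lowest WT value of 2.69%, in 1 of 12 classes (8.33%) whose groups did not overlap. Against WT 6 alone, within batch 3, the CD8 T cell difference was -0.0724 points. Cancer cell cluster 12 had 4.65%, 4.71% and 4.61% in 80% tumors, against 4.71% to 5.61% with a median of 5.40% in WT (difference -0.632 points, with the closest tumors of the groups both at 4.71%, exact permutation p = 0.00833, the smallest that 3 against 7 tumors can give, adjusted p = 0.292). It was among 3 of 35 clusters (8.57%) with an unadjusted p under 0.05, and within batch 3 its difference was -0.0550 points.

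Between heteroplasmies, 80% against 60% tumors gave 0 of 12 classes (0%) past the adjusted threshold and 2 of 12 (16.7%) with an unadjusted p under 0.05. The same 2 classes were those without overlap. DC had 3.39%, 3.32% and 3.19% in 80% tumors and 3.46% to 3.80% with a median of 3.57% in 60% tumors (difference -0.281 points, interval -0.480 to -0.0834). CD8 T cells had 2.68%, 2.58% and 2.67% in 80% tumors and 2.86% to 3.03% with a median of 2.94% in 60% tumors (difference -0.301 points, interval -0.417 to -0.192). Each had p = 0.0119 by exact permutation, the smallest that 3 against 6 tumors allow, and an adjusted p = 0.0714. The median mitochondrial percentage of DC averaged 0.414% in 80% and 0.611% in 60% tumors and their median depth 2477 UMIs in 80% and 3957 UMIs in 60% tumors. For CD8 T cells these were 0.585% in 80% and 0.851% in 60% tumors, and 2174 UMIs in 80% and 3172 UMIs in 60% tumors. The part of the mitochondrial percentage in the differences was not tested, and depth was varied only through limits and thinning. Both differences stayed below 0 in the 9 alternatives that include these. Among clusters, 8 of 35 (22.9%) had an unadjusted p under 0.05, of which 7 (20%) were lower in 80% tumors, and 0 passed after adjustment (smallest adjusted p = 0.208 by exact permutation). The 60% tumors pooled both mutations, whereas all 80% tumors carried the same mutation. The 80% and 60% tumors also had no batch in common. Heteroplasmy can therefore not be told apart from batch, and in the pooled comparison mutation differs as well. In DC and CD8 T cells the 60% tumors of either mutation all lay above the 80% tumors. A separate test of 80% against 60% tumors of the same mutation was not made.

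Last, the 2 mutations were compared at equal heteroplasmy. Over all cells the m.11944 60% tumors had 3.46%, 3.41% and 3.43% and the m.12436 60% tumors 4.02%, 3.53% and 3.80%, with no overlap (difference -0.349 points, exact permutation p = 0.10, the smallest that 3 against 3 can give, adjusted p = 0.331). Class by class 10 of 12 medians were lower in m.11944 60% tumors, 0 of 12 (0%) were without overlap, and the largest gap was in cancer cells, at 3.38 ± 0.160% in m.11944 60% and 3.81 ± 0.259% in m.12436 60% tumors (exact permutation p = 0.20). Among clusters 0 of 35 (0%) had an unadjusted p under 0.05, which 3 against 3 tumors cannot reach, and 6 of 35 (17.1%) were without overlap. The mutations lay in different batches. Each set against the WT tumors of its own batch, the all-cell effect was -0.137 points for m.12436 and -0.427 points for m.11944, and the difference between the effects was 0.290 points (exact permutation within batches, p = 0.475). None of the 12 classes showed a difference between the effects with an unadjusted p under 0.05. The smallest p was that of the endothelial cells, with an effect of 0.393 points for m.12436, against 0.0145 points for m.11944 (exact permutation within batches, p = 0.135, adjusted p = 0.827).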

How the data were processed

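Single-cell RNA sequencing of whole tumors used droplets (10x Genomics, 3′ chemistry), and the deposited table of cells was used here. According to the submitters' processing notes, the authors aligned reads to GRCm39 with Cell Ranger 7.0.1, worked in Seurat 4.2.0 under R 4.2.1, assigned cell classes using clustifyr 1.8.0, integrated batches using Harmony 0.1.0 and inferred aneuploidy using CopyKAT 1.1.0. The authors removed cells above 37000 UMIs, above 5% mitochondrial UMIs or below 500 genes, and 0 deposited cells break these limits. Counts of UMIs and of genes per cell were deposited without normalization. The percent of UMIs from dissociation-related, mitochondrial and ribosomal genes was computed by the authors, and multiplied by the UMI count it gave a whole number of dissociation UMIs in 100% of cells (within 1e-06 UMIs). The authors further gave each cell a doublet score, cell cycle scores and an epithelial score, whose scales are not given in the sources used here.

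Tumors were the replicates, and the value of a tumor was the median over cells. The p values measure the spread between these tumors. Classes and clusters were tested where each of the 16 tumors had at least 5 cells (12 and 35), with exact two-sided permutation tests of group means, 95% intervals from inverting them, and Benjamini-Hochberg adjustment at 0.05. Batches come from the table alone. The third is named there after the m.12436 80% group, and how it relates to the numbered ones is not stated. Within-batch tests permuted labels inside batches. The members, lists and tests were chosen with earlier results of these data known. Clusters were named where they were among the 5 highest or 5 lowest tested, past the adjusted threshold, or among the 3 of smallest p in mutant against WT. Clusters 0, 4, 5, 9, 11, 13, 15, 16, 23, 30 and 33 were chosen after their values were seen. The alternatives were other summaries over cells, depth and gene limits, thinning, the log2 scale, a replicate block and leaving out each tumor. Analyses used pandas 2.3.3, scipy 1.17.1, matplotlib 3.10.9 and numpy 2.4.6 in Python 3.11.15, and the tests were checked on simulated data.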

Additional observations from a re-analysis of the deposited data

Results flagged for a closer look

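In macrophages, m.12436 60% 1 had 3.86% and stood apart both from the other 60% tumors, whose nearest value was 3.33%, and from the other mutant tumors, whose nearest value was 3.36%. The same tumor had 3.63% in endothelial cells, with the nearest other 60% tumor at 3.14%. In NK cells, m.11944 60% 3 had 2.40%, and the next of the 60% tumors had 2.86%, over 74 NK cells in that tumor. These are 4 of 39 groups of tumors examined for such gaps, and chance alone flags about 1 in 20 separate groups. The groups examined are not separate. The 60% tumors are also part of the mutant groups, and the macrophage value of m.12436 60% 1 was flagged in both. The 4 can therefore not be set against that rate. Relative to the mean of the 12 classes of the tumor, the endothelial cells differed between mutant and WT tumors by 0.346 percentage points (exact permutation p = 0.00656, adjusted p = 0.0787), while the other 11 classes had adjusted p values of 0.603 to 0.976.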

How the results depend on the processing

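In the 5 group comparisons over all cells, by class and by cluster, the alternatives left each call on its side of the adjusted threshold, except where stated here. Within batches the all-cell difference of 80% against WT tumors was 0.174 points, against -0.324 points over all tumors. The neutrophil difference of mutant against WT tumors, -0.122 points, turned to 0.00248 points within batches, to 0.0785 points with the replicate block and to 0.0376 points without WT 5, in a range of -0.264 to 0.0376 points over the tumors left out. Without m.11944 60% 3, 1 class passed in mutant against WT, the endothelial cells (exact permutation, adjusted p = 0.0429), and 1 relative to its tumor (adjusted p = 0.0373). Over the tumors left out in turn, the number of classes passing was 0 to 1 in both of these tests, and the all-cell mutant difference -0.324 to -0.130 points. The WT difference between batches 2 and 1 was -0.0399 points with the pooled share, against 0.0589 points. Macrophages without cluster 3 had 2.98%.

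Neutrophils and monocytes stayed at the top of the order of classes under the 5 alternatives run over all tumors (mean, pooled share, gene minimum, thinning and a depth window), but among cells of 1000 to 2000 UMIs macrophages stood above monocytes, and 3 to 5 of the neighboring pairs passed. The numbers 1 to 3 were not taken to pair the tumors: over 18 pairs with the same number the correlation of class deviations was -0.674 to 0.809, and over 0.1 in 7, among them the 3 pairs of m.12436 80% and WT (0.478, 0.459 and 0.492), whose correlations over clusters were 0.0151, -0.165 and -0.138. With the block, 80% against WT gave -0.378 points over all cells (exact permutation p = 0.25, the smallest that 3 pairs can give). In the replicate block the all-cell mutant difference was -0.294 points (exact permutation p = 0.0313, adjusted p = 0.156) and the endothelial difference 0.164 points (adjusted p = 0.594). Within-batch values could not be had for 80% against 60% tumors and for m.11944 against m.12436, which share no batch. Alternatives without neutrophils, without single clusters and with deeper endothelial cells were added after the data were seen. Endothelial and B cell medians rest on as few as 12 and 5 cells in a tumor.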
